A study of Mus musculus with 70 samples.

Results

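The comparison concerns chromatin interactions of the mouse fetal forebrain (FB) at mid-neurogenesis against those at its beginning. It uses 8 of the 70 samples of the series, all of them H3K4me3 PLAC-seq libraries of FB. The 4 middle libraries are 2 replicates of embryonic day (E) 14.5 and 2 of E15.5, and the 4 early libraries are 2 of E12.5 and 2 of E13.5, chosen by their labelled tissue and stage alone. The series holds 24 PLAC-seq libraries in all, 12 of them from FB, and the E16.5 and P0 libraries enter only 1 alternative fit. All 8 libraries came from C57BL/6N mice with no genetic change or treatment named, the labelled difference between the groups is stage, and each library was made from bulk tissue. The labels call the libraries biological replicates; how many embryos went into each is not given in the sources used here.

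PLAC-seq cuts and religates cross-linked chromatin, so that DNA fragments lying close together in the nucleus become joined, and then pulls down fragments bound by a chosen protein. With an antibody against H3K4me3, the trimethylated histone mark of active and poised promoters, the read pairs report on contacts that have a promoter at one end or both. Over these days the radial glia of the forebrain, its neural stem cells, pass from expanding their own number to producing neurons, the deep layers of the cortex before the upper ones, while interneurons born ventrally migrate in. Genes for synapses, ion channels and axon growth are switched on in the new neurons, and genes of the progenitor state are switched off.

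Each library comes as a list of interactions, which are pairs of 10-kb bins with more read pairs than the authors' MAPS regression predicts. A listed pair holds 2 times the expected read pairs or more, has an FDR under 1%, spans 20 kb to 1 Mb and lies on one of 19 autosomes. The ratio of its read pairs to the expected number is called the observed/expected ratio below. A pair that is missing from a list may be below those limits or may not have been tested, since a tested pair needs an H3K4me3 peak of the same stage at one end. Interactions were assigned to a gene through the bins holding its transcription start sites (TSSs). There were 35186 such bins for 20807 autosomal protein-coding genes, and genes that share a TSS bin share their interactions.

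The number of interactions per library was not shown to differ between the groups beyond the spread of the libraries. It was 18413 and 16075 at E12.5, 30876 and 27156 at E13.5, 32769 and 24588 at E14.5, and 31470 and 35515 at E15.5. Both E12.5 libraries were the lowest, whereas the E13.5 libraries lay within the range of the middle group. The mean was 23130 ± 7029 (SD, n = 4) early and 31086 ± 4648 (SD, n = 4) middle, a ratio of 1.34 (p = 0.143, exact permutation test over 70 splits, 2-sided; the smallest p this design allows is 0.0286). The shortage at E12.5 moves with the comparison, so stage and the number of calls cannot be told apart for any result that rests on E12.5. Numbers per library below are unscaled unless called scaled, which means relative to the median library total of 29016. Log2 differences between the groups are scaled unless said otherwise. Numbers from the authors' pooled lists, made from equal numbers of read pairs per stage, are given for some of the genes. Log2 differences and their medians from the pooled lists are not scaled to the list totals. Those pooled lists held 51264, 57174, 59278 and 67278 interactions from E12.5 to E15.5.

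No difference in the reach and composition of the interactions was detected with this number of libraries. The median distance was 260 and 260 kb at E12.5, 280 and 270 kb at E13.5, 300 and 270 kb at E14.5, and 280 and 290 kb at E15.5, with a mean 17.5 kb longer in the middle group (p = 0.143, exact permutation test, 2-sided). Interactions of 500 kb or more made up 21.2% of the early and 23.4% of the middle lists on average (p = 0.0571, exact permutation test, 2-sided). Interactions between promoter bins made up 15.6 ± 0.754% (SD, n = 4) early and 16.0 ± 1.01% (SD, n = 4) middle (p = 0.657, exact permutation test, 2-sided). Over these 6 library measures, of which the median observed/expected ratio (3.96 early, 4.03 middle, exact permutation p = 0.2) and the share with no promoter bin (24.6% early, 23.4% middle, exact permutation p = 0.486) are the others, no raw p reached 0.05.

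The forebrain label was carried by all 8 lists. The cortical patterning factor Emx2 had 85 to 116 interactions early and 61 to 99 middle, Six3, a factor of the anterior neural plate, had 64 to 79 and 62 to 73, and the cortical selector factor Lhx2 had 82 to 92 and 74 to 93. The endothelial markers Kdr and Cdh5 and the microglial markers Cx3cr1 and Csf1r had 0 in all 8 libraries, as did the mesenchymal factor Prrx1. Other markers of those cells were not at 0: the endothelial gene Pecam1 had 0 or 1 early and 0 middle, the myeloid factor Spi1 0 or 1 early and 0 to 2 middle, and the mesenchymal genes Foxc1 (7 to 11 early, 9 to 16 middle), Foxc2 (15 to 19 and 18 to 20) and Col1a1 (0 to 3 and 0 to 5) had more. H3K4me3 also marks poised promoters, and genes of posterior neural tissue had interactions too, for example Hoxb4 with 11 to 24 early and 14 to 22 middle.

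No gene passed the test of middle against early on the scaled number of interactions. Of 5179 genes with a scaled mean of at least 1 over the 8 libraries, 0 were higher and 0 were lower at an adjusted p under 0.05 (0% and 0%; limma with Benjamini-Hochberg adjustment, on log2 of the scaled number plus 1), and the smallest adjusted p was 0.0969. The edgeR quasi-likelihood test and DESeq2 on the same numbers also called 0 and 0. At an unadjusted p under 0.05 limma gave 520 higher genes (10.0% of those tested) and 235 lower genes (4.54%). The direction of 468 and 218 of them was the same in the pooled lists, which hold read pairs of these same libraries and are no independent check. In 209 genes (4.04%) all 4 middle libraries lay above all 4 early ones, and in 150 (2.90%) all 4 lay below. The counts depended on single libraries, since limma called 44 higher and 17 lower genes without E13.5 replicate 1, and 3 and 1 without E13.5 replicate 2.

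Which genes pass depends on how the spread is measured. A fit with 1 mean per stage, comparing the 2 middle stages with the 2 early ones by the spread within stages alone, called 60 higher genes (1.16%) and 26 lower genes (0.502%) at an adjusted p under 0.05 (limma, Benjamini-Hochberg). Of the 60, 48 had 0 interactions in both E12.5 libraries, which is true of 14.4% of all genes tested. The pooled lists went the same way for 57 of the 60 and 25 of the 26, but they pool these same libraries and are no independent check. The calls depended on single libraries: the stage-means fit called 0 higher and 0 lower without E13.5 replicate 1, without E13.5 replicate 2, without either E14.5 replicate and without E15.5 replicate 1, and 1 and 0 without E15.5 replicate 2, but 196 and 50 without E12.5 replicate 1 and 163 and 39 without E12.5 replicate 2. Without both E12.5 libraries it again called 0 and 0, with 59 of the 60 and 26 of the 26 still of the same sign. Below, a gene is said to have passed the stage-means fit where it is among these 60 or 26, with that limit.

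The higher and lower genes differed in size and in starting level. The median gene length was 24.6 kb over all genes tested, 160 kb for the 60 genes higher in the stage-means fit and 13.1 kb for the 26 lower ones. The median scaled level of the 60 was 2.24 interactions early and 7.39 middle, whereas that of the 26 was 23.4 early and 9.83 middle. These medians describe genes chosen on the same contrast and were not tested.

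**Figure D1:**
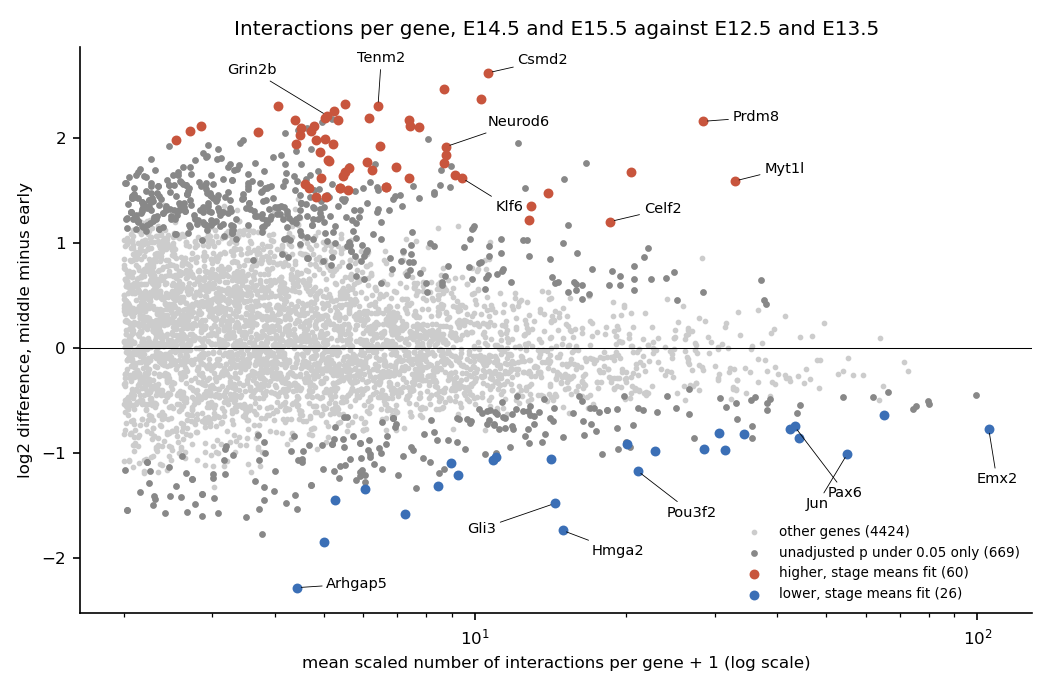
Log2 difference in scaled interactions per gene (middle minus early, y axis) against the mean scaled level plus 1 (x axis, log scale) for the 5179 genes tested, with the genes of the stage-means fit and the named genes marked. The genes higher in the stage-means fit have a median early level of 2.24 and the lower ones 23.4, and 2915 of all genes lie above 0.

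Among the genes with the smallest unadjusted p on the higher side were several with roles in growing and signalling neurons. Klf6, a zinc-finger transcription factor, had 2 and 1 interactions at E12.5, 6 and 4 at E13.5, 11 and 9 at E14.5, and 19 and 18 at E15.5. All 4 middle libraries lay above all 4 early ones, and the values within each later stage were close together. The scaled mean was 3.72 ± 1.63 (SD, n = 4) early and 13.1 ± 3.63 (SD, n = 4) middle, a log2 difference of 1.62 (SE 0.31, limma adjusted p 0.0969), and the pooled lists held 12, 20, 22 and 25.

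Grin2b encodes a subunit of the NMDA glutamate receptor that is typical of young neurons. Its numbers were 0 and 0 at E12.5, 3 and 1 at E13.5, 8 and 3 at E14.5, and 9 and 12 at E15.5. After scaling, the E13.5 replicate 1 value (2.8) came near the lowest middle value, that of E14.5 replicate 2 (3.5), and the groups did not overlap. The log2 difference was 2.22 (SE 0.49, limma adjusted p 0.0969), and the pooled lists held 1, 12, 18 and 26.

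Tenm2 encodes teneurin 2, an adhesion protein of axons and synapses, in a very long gene on chromosome 11. It had 0 and 0 interactions at E12.5, 2 and 4 at E13.5, 7 and 5 at E14.5, and 13 and 16 at E15.5. Every middle library was above every early one, and both E15.5 libraries were above both E14.5 libraries. The scaled mean was 1.54 ± 2.03 (SD, n = 4) early and 9.29 ± 3.77 (SD, n = 4) middle, with a log2 difference of 2.31 (SE 0.51, limma adjusted p 0.0969) and pooled numbers of 4, 7, 13 and 30.

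Celf2 encodes an RNA-binding protein that regulates splicing. It had 7 and 4 interactions at E12.5, 12 and 10 at E13.5, 33 and 12 at E14.5, and 31 and 35 at E15.5. E14.5 replicate 2 stood apart from the other 3 middle libraries and was equal to the highest early library before scaling (14.2 against 11.3 after it). The log2 difference was 1.21 (SE 0.25, limma adjusted p 0.0969).

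The other 6 genes of that group had few interactions and shared the pattern of 0 in both E12.5 libraries. B3gat2, which encodes a glucuronyltransferase of the HNK-1 carbohydrate, had 2 and 2 at E13.5, 6 and 5 at E14.5, and 12 and 12 at E15.5. Plekha5 (2 and 2, 8 and 4, 9 and 10) and the Rac exchange factor gene Tiam2 (2 and 0, 4 and 5, 9 and 6) had the same order of stages. Tmem178 (1 and 3, 7 and 8, 11 and 5) rose from E13.5 to E14.5, and its E15.5 values lay on either side of those of E14.5. Carmil3, which encodes a regulator of actin capping (2 and 2, 6 and 6, 7 and 9), and Trim44 (1 and 1, 5 and 4, 6 and 6) had the order of B3gat2 too. Their log2 differences lay between 2.06 for Trim44 and 2.32 for B3gat2 on the log2(number + 1) scale, and each had a limma adjusted p of 0.0969. In the pooled lists none of the 6 was at 0 at E12.5: they held 3 (Tiam2 and Carmil3) to 10 (Plekha5). The pooled log2 differences, which are unscaled, were from 0.58 for Trim44 (7, 7, 9 and 13) to 2.05 for Carmil3 (3, 2, 9 and 18). All 10 genes also passed the stage-means fit, and without E12.5 their log2 differences were still positive, from 1.08 for Celf2 to 1.98 for Tiam2.

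On the lower side the smallest p belonged to Gli3, the zinc-finger effector of Sonic hedgehog signalling that patterns the dorsal telencephalon and maintains cortical progenitors. It had 14 and 17 interactions at E12.5, 15 and 14 at E13.5, 8 and 6 at E14.5, and 7 and 6 at E15.5. The groups did not overlap before or after scaling, although the middle lists were longer. The scaled mean was 20.5 ± 7.70 (SD, n = 4) early and 6.38 ± 1.03 (SD, n = 4) middle, the log2 difference was −1.48 scaled (SE 0.26, limma adjusted p 0.0969) and −1.05 unscaled, and the pooled lists held 28, 22, 17 and 20.

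Hmga2 encodes a chromatin protein that supports the self-renewal of young neural stem cells and is a target of let-7 microRNAs. It had 22 and 13 interactions at E12.5, 14 and 14 at E13.5, 12 and 8 at E14.5, and 3 and 3 at E15.5. Both E15.5 libraries were the lowest, and all middle libraries lay below all early ones. The log2 difference was −1.74 (SE 0.39, limma adjusted p 0.0969) scaled and −1.32 unscaled, and the pooled numbers were 36, 26, 22 and 12.

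Pou3f2 (Brn2), a POU factor of late progenitors and upper-layer neurons, had 20 and 23 interactions at E12.5, 25 and 16 at E13.5, 19 and 8 at E14.5, and 10 and 14 at E15.5. Without scaling, E14.5 replicate 1 overlapped the early group, and after scaling it did not (16.8 against at least 17.1). Its log2 difference was −1.17 (SE 0.27, limma adjusted p 0.0969) and its pooled numbers were 48, 40, 25 and 24.

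Sox21, a SoxB2 factor of neural progenitors, had 19 and 16 interactions at E12.5, 22 and 20 at E13.5, 15 and 14 at E14.5, and 13 and 12 at E15.5. The groups did not overlap on either scale. Its log2 difference was −0.92 (SE 0.22, limma adjusted p 0.103). A830031A19Rik, whose TSS bin lies on chromosome 11 near Bcl11a, had 25 and 28, 27 and 31, 17 and 17, and 21 and 22 interactions (log2 difference −0.96, SE 0.22).

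Of the other lower genes, 2 were Hox genes, which carry posterior identity and are held inactive in the forebrain. Hoxc4 had 12 and 7 interactions at E12.5, 12 and 12 at E13.5, and 6 or 7 in each middle library, and its pooled numbers were 21, 19, 9 and 8. Hoxb13 had 4 to 8 early and 1 to 3 middle, and its pooled numbers were 3, 8, 3 and 6. Arhgap5, which encodes a GTPase-activating protein, had 3 and 4, 4 and 9, 0 and 1, and 1 and 0 interactions, and Bag6, which encodes a protein quality control factor, had 6 and 5, 6 and 3, 2 and 1, and 2 and 0. Their pooled numbers were 16, 10, 11 and 8 (Arhgap5) and 10, 8, 5 and 7 (Bag6). For Hoxb13, Arhgap5 and Bag6 the pooled log2 differences, which are unscaled, were −0.24, −0.42 and −0.51. Over the 8 libraries they were −1.06, −1.99 and −1.51 unscaled and −1.45, −2.29 and −1.85 scaled. The ribosomal protein gene Rplp1 had 6 to 12 early and 3 to 7 middle, but its pooled lists went the other way (17, 14, 19 and 19). These 10 lower genes also passed the stage-means fit, and their log2 differences were negative under total, unscaled and usable-read-pair scaling.

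**Figure D2:**
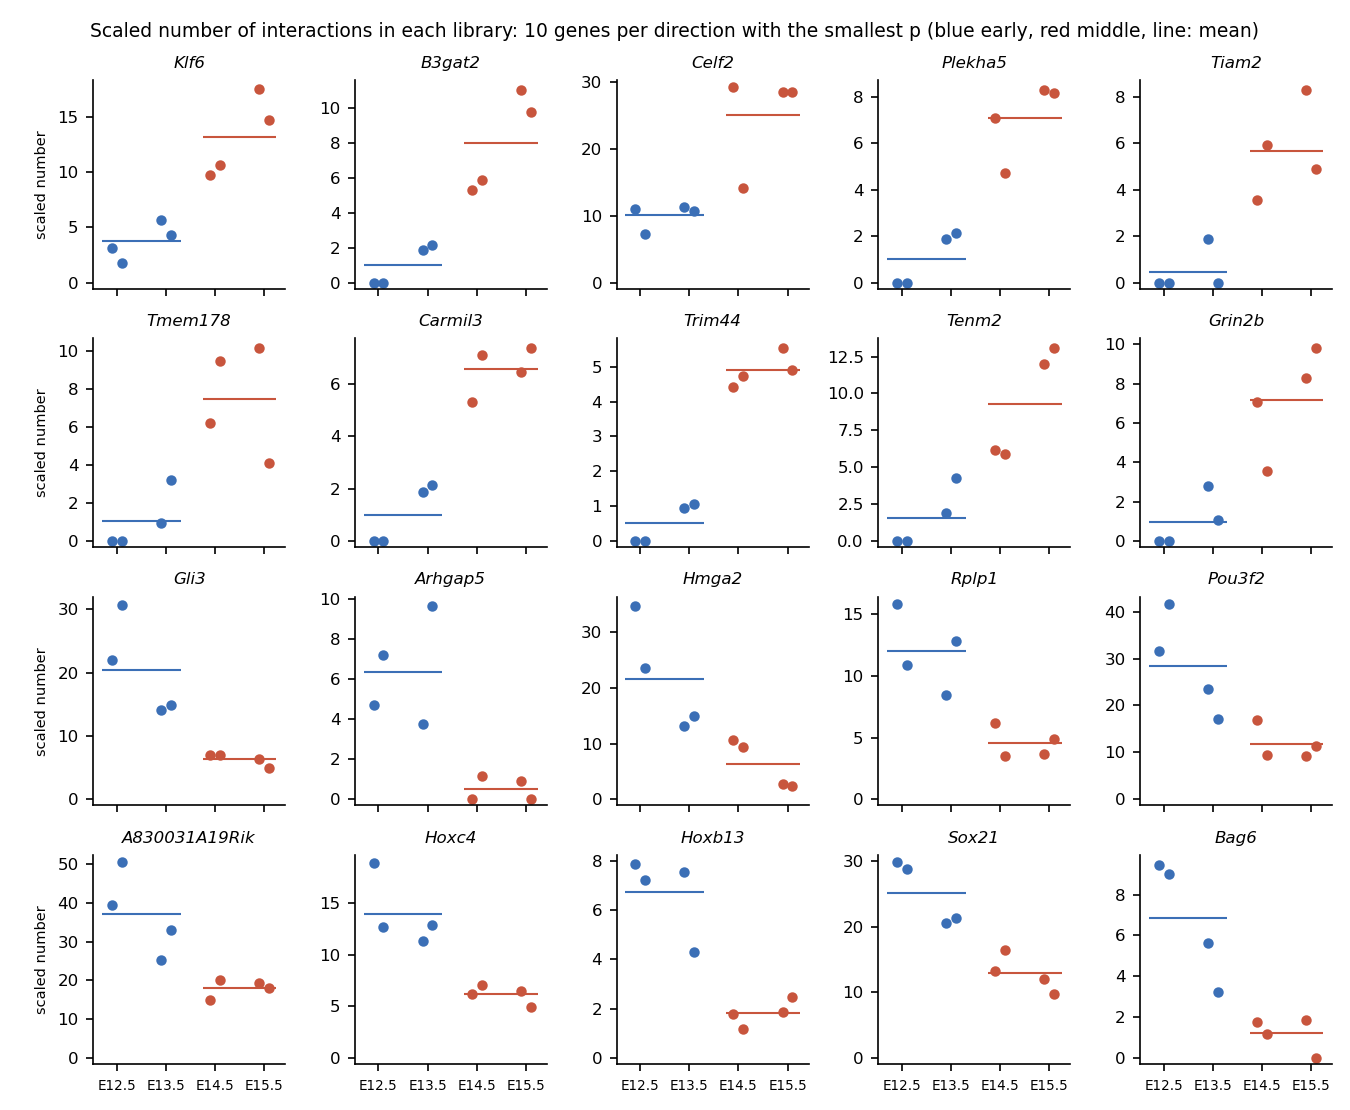
Interactions per library, scaled to the median library total (y axis), for the 10 genes per direction with the smallest p at E12.5, E13.5, E14.5 and E15.5 (x axis), each point being 1 of 8 libraries and each line the mean of a group of 4. Of the upper 10 genes 8 are at 0 in both E12.5 libraries (14.4% of all genes tested), and in all 20 the early and middle points do not overlap. The 20 genes were picked by their p on this same contrast. Of all 5179 genes tested, 4.04% have all middle libraries above all early ones and 2.90% have them below.

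The genes named for their place in cortical neurogenesis gave a mixed picture, and none passed the limma test. Neurod1, a proneural bHLH factor of new neurons, had 0 and 0 interactions at E12.5, 6 and 9 at E13.5, 6 and 7 at E14.5, and 9 and 10 at E15.5. The step lay between E12.5 and E13.5 and not between the groups: the log2 difference was 1.54 (SE 0.62) over 8 libraries and 0.00 without E12.5. Neurod6, a bHLH factor of differentiated pyramidal neurons, had 0 and 0, 11 and 7, 12 and 7, and 16 and 13 interactions, with a log2 difference of 1.92 (SE 0.63) that was 0.27 without E12.5. Both genes passed the stage-means fit. Neurod2 had 1 in each early library and 2 or 3 in each middle library.

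The layer genes had no common direction. Tbr1, which specifies deep-layer corticothalamic neurons, had 3 and 3 interactions at E12.5, 8 and 12 at E13.5, 13 and 7 at E14.5, and 17 and 21 at E15.5. Its groups overlapped at E13.5 and E14.5, with a log2 difference of 0.75 (SE 0.30, limma adjusted p 0.255). Bcl11b (Ctip2), the factor of subcerebral neurons, had 4 to 7 early and 1 to 9 middle, with a log2 difference of −1.01 (SE 0.42, limma adjusted p 0.273). Fezf2, its upstream regulator in those neurons, had 9 to 12 early and 10 to 17 middle.

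Pax6, the master factor of dorsal radial glia, had 41 and 34 interactions at E12.5, 44 and 44 at E13.5, 37 and 25 at E14.5, and 34 and 37 at E15.5. Before scaling the groups overlapped at 34 to 37, and after scaling they did not (41.3 to 64.6 early, 29.5 to 32.8 middle; log2 difference −0.75, SE 0.19, limma adjusted p 0.118). The pooled lists held 82 and then 66 at each of the later 3 stages. Eomes (Tbr2), the factor of intermediate progenitors, had 9 to 16 early and 10 to 19 middle. Sox2 and Sox9, both factors of neural stem cells, had log2 differences of −0.46 and −0.48.

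The interneuron genes Dlx1, Dlx2, Gad1 and Gad2 had scaled log2 differences of −0.26, −0.42, −0.11 and −0.41. Unscaled, their differences were 0.18, 0.02, 0.34 and 0.03, and Eomes (0.04) and Fezf2 (0.32) also changed sign. Relative to the median of all genes, all 6 were below it on both scales, from −0.51 (Dlx2) to −0.20 (Fezf2 and Gad1) scaled and from −0.37 (Dlx2) to −0.06 (Gad1) unscaled. Nfia, a factor that opens the switch to gliogenesis, had 11 and 13 interactions at E12.5, 21 and 19 at E13.5, 32 and 18 at E14.5, and 36 and 37 at E15.5 (log2 difference 0.45, SE 0.20). E14.5 replicate 2 lay within the early range. Lin28b, the let-7 antagonist of young progenitors, had 0 in all 8 libraries and could not be tested.

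Whole gene lists, chosen with earlier results of these data known, are described here by counts and medians without a test. The median log2 difference of all genes tested was 0.09 scaled, 0.40 unscaled, 0.52 scaled to usable read pairs and 0.21 in the pooled lists, so a list is read against those values. In bulk tissue, fewer cells of a type and fewer contacts per cell of that type cannot be told apart. Beside these lists, the summed scaled numbers of genes of other cell types were as follows. Each sum covers all autosomal members of its list, tested or not. The 20 endothelial genes (5 tested) had 18.1 to 26.8 early and 12.9 to 21.2 middle. The 18 genes of microglia and blood (5 tested) had 21.4 to 28.9 and 17.5 to 30.1. The mesenchymal genes had 48.9 to 85.1 and 49.6 to 68.4, and the posterior neural genes 187 to 232 and 130 to 182. The posterior neural sums did not overlap, and their part in the results was not tested. Over the 5 genes tested of each, the median log2 difference was −0.93 for the endothelial list and −0.60 for microglia and blood. In the pooled lists these medians were −0.42 and 0, and without E12.5 they were −0.28 and 0.05. All middle libraries lay below all early ones in 2 of the 5 endothelial genes (40%, against 2.90% of all genes) and in 0 of the 5 of microglia and blood.

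The list of synapse and channel genes stood highest. Of 29 genes tested, 27 had a positive log2 difference (93.1%, against 56.3% of all genes tested), 11 had an unadjusted p under 0.05 on the higher side (37.9%, against 10.0%) and 0 on the lower side (4.54% of all genes), and 4 passed the stage-means fit. The median was 0.94 scaled, 1.00 unscaled, 0.58 in the pooled lists and 0.41 without E12.5 (0.01 over all genes). Besides Grin2b, the AMPA receptor genes Gria1 and Gria2 had log2 differences of 2.10 (SE 0.50) and 1.16 (SE 0.27). Gria1 had 0 and 0 interactions at E12.5, 1 and 2 at E13.5, 7 and 2 at E14.5, and 9 and 10 at E15.5, which meet at 2. The calcium channel genes Cacna2d1 (2.00, SE 0.50) and Cacna1c (1.03, SE 0.33) and the synaptotagmin Syt4 (1.52, SE 0.53) were also among the 11, with these log2 differences. The summed scaled number of the list, over its 50 autosomal members, was 86.6 to 137 early and 157 to 236 middle.

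Genes of axon guidance and adhesion lay closer to all genes. Of 35 tested, 20 had a positive difference (57.1%, against 56.3% of all genes), 9 had an unadjusted p under 0.05 on the higher side (25.7%, against 10.0%) and 2 on the lower (5.71%, against 4.54%), and the median was 0.18 scaled and 0.36 pooled. Chl1, a neural adhesion molecule of the L1 family, had 0 and 0 interactions at E12.5, 5 and 5 at E13.5, 9 and 8 at E14.5, and 15 and 12 at E15.5 (log2 difference 2.17, SE 0.54). Cdh13 (T-cadherin) had 1 and 3, 16 and 20, 23 and 18, and 35 and 47. It rose from E12.5 to E13.5 and again from E14.5 to E15.5, and its scaled groups overlapped. Both passed the stage-means fit. On the lower side, the ephrin gene Efna5 had a scaled mean of 7.39 early and 2.71 middle, and the netrin gene Ntn1 40.5 and 28.4.

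The neural progenitor list had a negative median. Of 25 genes tested, 2 had a positive difference (8%, against 56.3% of all genes), 0 had an unadjusted p under 0.05 on the higher side (10.0% of all) and 11 on the lower (44%, against 4.54%), and in 7 all middle libraries lay below all early ones (28%, against 2.90%). The median was −0.46 scaled and −0.16 in the pooled lists, −0.10 unscaled and 0.04 by usable read pairs. Relative to the median of all genes on the same scale, it was −0.55 scaled, −0.50 unscaled, −0.48 by usable read pairs and −0.36 in the pooled lists. Besides Gli3, Hmga2 and Pax6, the Notch ligand gene Dll1 had a scaled mean of 24.1 early and 12.5 middle. The receptor gene Notch1 had 5.10 and 1.33, and the growth factor receptor gene Fgfr3 7.69 and 2.42. Emx2, which sets cortical area identity, had 85 and 99 interactions at E12.5, 99 and 116 at E13.5, 99 and 77 at E14.5, and 61 and 86 at E15.5, with overlap before scaling. Gli3, Hmga2, Pax6, Emx2 and Fgfr3 were the 5 genes of this list that passed the stage-means fit.

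Timing and cell cycle genes had a similar median. Of 17 tested, 6 had an unadjusted p under 0.05 and all were lower (35.3%, against 4.54% of all genes), with a median of −0.49 scaled and −0.04 unscaled. The G1 cyclins Ccnd1, Ccnd2 and Ccnd3 had scaled means of 18.4 and 7.94, 52.6 and 33.0, and 5.55 and 1.31 (early and middle). Hmga2 belongs to both lists. Among the neurogenic bHLH and related genes, 3 were higher and 4 lower at an unadjusted p under 0.05 of 17 tested (17.6% and 23.5%, against 10.0% and 4.54% of all genes): Neurod1, Neurod6 and the neuronal zinc-finger gene Myt1l were higher, and the proneural gene Neurog1 (scaled mean 4.73 early, 1.89 middle) and the Ebf2 (13.8 and 5.90) and Ebf3 (24.6 and 13.4) genes were among the lower ones. Myt1l had 6 and 2, 37 and 22, 43 and 18, and 68 and 76, with a rise after E12.5 and another from E14.5 to E15.5.

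The cortical projection neuron list was divided evenly, with 7 higher and 7 lower of 30 tested at an unadjusted p under 0.05 (23.3% each, against 10.0% and 4.54% of all genes). Zfpm2 (Fog2), a cofactor of corticothalamic neurons, had 0 and 0 interactions at E12.5, 2 and 2 at E13.5, 4 and 5 at E14.5, and 16 and 8 at E15.5. The lower genes of that list included Pou3f2, the area and migration factors Nr2f1 (scaled mean 25.0 early, 14.3 middle) and Nr2f2 (43.2 and 23.4), and Bcl11a (79.2 and 49.3). Ventral and GABAergic genes had 1 higher and 6 lower of 30, diencephalic genes 0 and 6 of 20, and gliogenic genes 0 and 2 of 13 (Olig2, 9.82 early and 3.42 middle, and Pdgfra, 31.1 and 20.2). These counts were 3.33% and 20% of the ventral, 0% and 30% of the diencephalic and 0% and 15.4% of the gliogenic genes, against 10.0% and 4.54% of all genes. The housekeeping list had 0 and 0 of 11, with a median of 0.21. Without E12.5, and so with fewer libraries, 262 of the 5179 genes were higher and 141 lower at an unadjusted p under 0.05 (limma). The counts were then 2 and 1 for cortical projection neuron and 0 and 1 for ventral genes. They were 0 and 3 for diencephalic and 0 and 1 for gliogenic genes. Synapse genes had 5 and 0, axon guidance genes 4 and 0, and progenitor genes 0 and 6. Timing and bHLH genes had 0 and 2 each. The ventral median was 0.03.

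**Figure D3:**
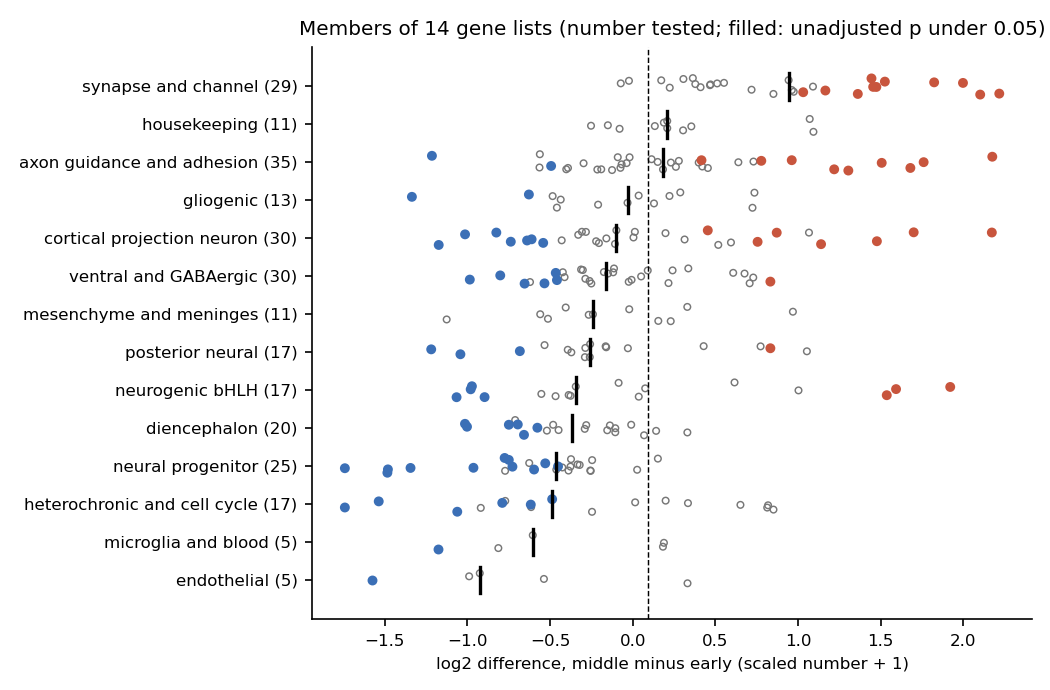
Log2 difference in scaled interactions (middle minus early, x axis) of each tested gene in 14 lists (y axis), with the median of each list and of all genes tested. The synapse and channel list has the highest median, 0.94. The lowest are the endothelial list at −0.93 and the microglia and blood list at −0.60 (5 genes tested each). The timing and cell cycle list follows at −0.49 and the neural progenitor list at −0.46.

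The partners of these genes show which contacts were listed in 1 group only. Tenm2 contacted 3 bins inside its own body, at chr11:36030001-36040000, chr11:36210001-36220000 and chr11:36240001-36250000, 430 to 640 kb downstream of a TSS bin that itself lies within the gene (chr11:36670001-36680000), in 4 of 4 middle and 0 of 4 early libraries. All 3 were in both middle pooled lists and in neither early one, and CTCF, the insulator protein that anchors loops, had a peak in each bin at every stage. Klf6 had partners 920 and 930 kb upstream in 4 of 4 middle and 0 of 4 early libraries, of which the pooled lists held the nearer at all 4 stages and the farther at the 2 middle stages only. Neurod1 had 1 at 410 kb, in both middle pooled lists and in neither early one. Nfia contacted a bin at the Patj promoter 670 kb downstream (chr4:98440001-98450000) in 4 of 4 middle and 0 of 4 early libraries, and 4 bins inside its own body in 3 of 4 middle and 0 early. Grin2b contacted an intragenic bin 270 kb away in 4 middle and 1 early library, with CTCF fold enrichments there of 24.1, 25.6, 53.7 and 11.9 from E12.5 to E15.5.

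Pax6, Gli3, Hmga2 and Sox21 had partners listed in more early than middle libraries. Pax6 had 3 partners in all 4 early and no middle lists, at chr2:105510001-105520000 and chr2:105520001-105530000, both 150 kb upstream of their TSS bin, and at chr2:106180001-106190000, 500 kb downstream. None of the 3 was in a middle pooled list, and 11 other Pax6 pairs were in all 8 libraries. Gli3 contacted bins inside its own body, at 70, 80, 160, 220, 240 and 260 kb, in 3 or 4 early and 1 or 2 middle libraries, and none of the 6 had a CTCF peak at E12.5, E13.5 or E14.5. Its partners at 90 and 290 kb, which had CTCF peaks at all 4 stages, were in all 8 libraries, while the one at 300 kb, also with CTCF peaks, was in 3 early and 1 middle library. Hmga2 contacted 2 neighbouring bins 390 and 400 kb upstream, the farther holding the Msrb3 promoter, in 4 early and 1 middle library, and both bins had CTCF peaks at all 4 stages. Sox21 had a partner 260 kb upstream in 4 early and 0 middle libraries that the pooled lists held at every stage, which shows that a pair missing from 4 lists need not be absent from deeper data.

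**Figure D4:**
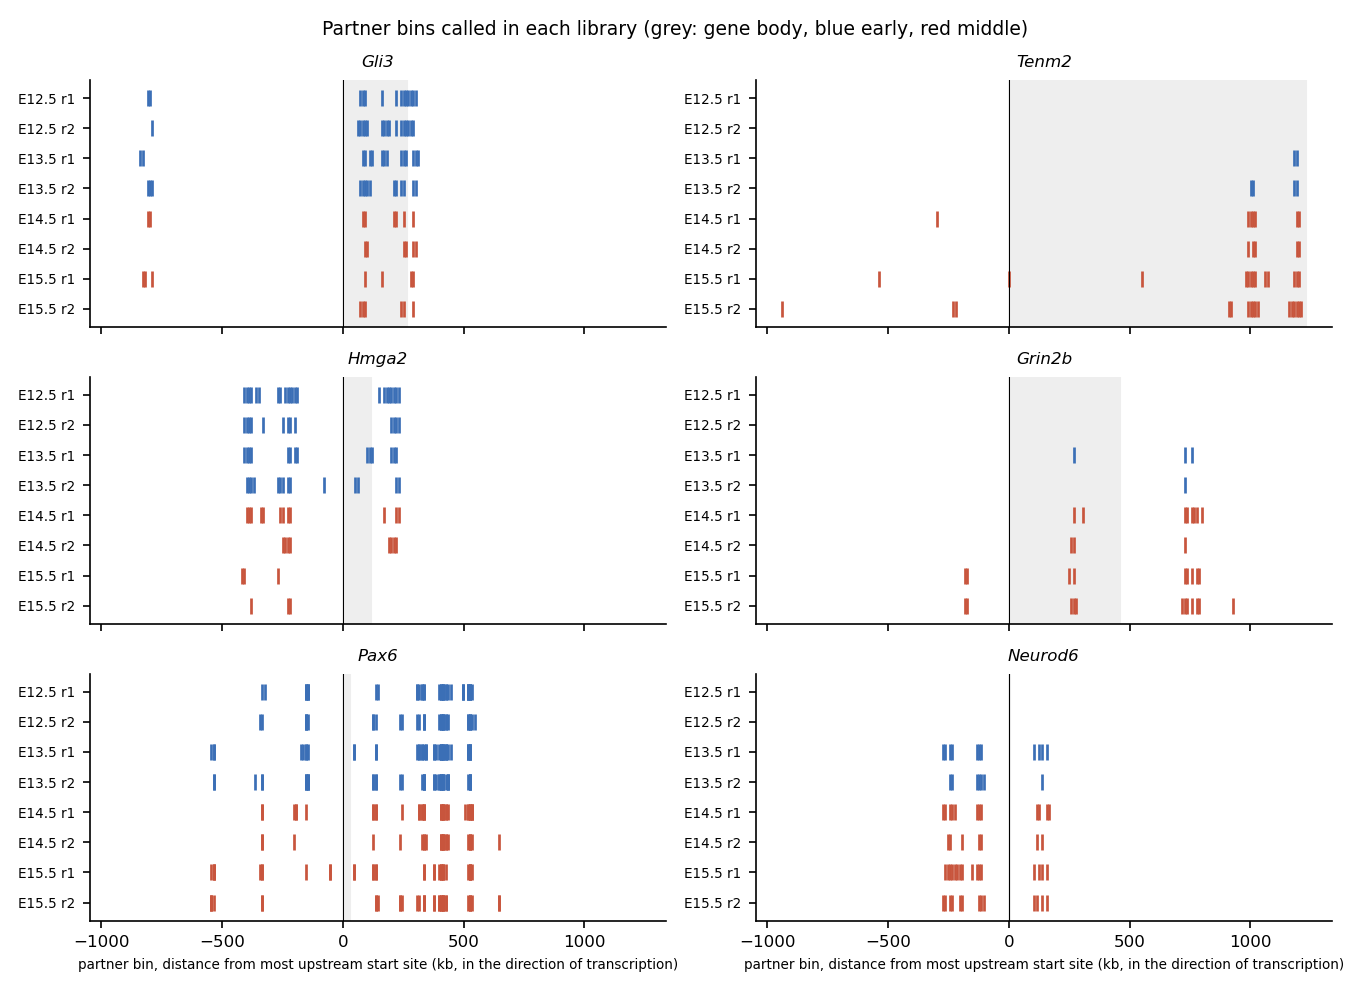
Partner bins listed in each of 8 libraries (rows) for Gli3, Hmga2, Pax6, Tenm2, Grin2b and Neurod6, by distance from the gene's most upstream start site in kb (x axis, positive in the direction of transcription), with the gene body in grey, early libraries in blue and middle libraries in red. Tenm2, Grin2b and Neurod6 have no partner at E12.5, and Hmga2 has the fewest at E15.5.

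Over all genes, 321 bin pairs were listed in all 4 middle and no early library, and 92 in all 4 early and no middle library, of 76469 pairs listed in any of the 8. These counts have no test, and the longer middle lists favour the first. Leaving out 1 library loosens the rule, so that the counts could not fall. They then ranged from 388 to 932 and from 122 to 219, the highest without E14.5 replicate 2 and without E12.5 replicate 2. The first set had a median distance of 320 kb and the second 245 kb, against 280 kb for all pairs. No promoter bin lay at either end in 41.3% of the early set, 18.4% of the middle set and 26.6% of all pairs. In the pooled lists, 124 of the 321 were in both middle and neither early list and 189 were in at least 1 early list, while 59 of the 92 were in both early and neither middle list.

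Among the early pairs, 8 belonged to Tbx3, a T-box repressor that acts in the developing hypothalamus, which was chosen here after its values were seen. Its partners lay together at chr5:118760001-118900000, 790 to 920 kb from its TSS bin, and all 8 were in both early pooled lists and in neither middle one. Neighbouring bins are not independent, so this counts as 1 region. Tbx3 had 27 and 22 interactions at E12.5, 36 and 33 at E13.5, 31 and 20 at E14.5, and 20 and 20 at E15.5. The glutamate receptor gene Grm4 had 3 early pairs. The middle pairs were spread over more genes, with at most 3 each, for Tenm2, the calcium channel gene Cacna1e, the nuclear receptor gene Nr4a3 and Btbd11.

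Pairs listed in all 8 libraries allow the contact itself to be compared and not only its presence in a list. There were 5370 such pairs, and the test was edgeR's quasi-likelihood test on their read pairs, relative to the number the authors' regression expects and to each library's median ratio, with Benjamini-Hochberg adjustment. Contact frequency was higher in the middle group for 4 pairs (0.0745%) and lower for 6 (0.112%), at an adjusted p of 0.0425 for 9 of them and 0.0463 for the other. At an unadjusted p under 0.05 there were 264 higher and 245 lower. Limma on the log ratios and DESeq2 called 0 and 0, and without the centring on each library's median the split was 10 higher and 0 lower. The edgeR calls also depended on single libraries: 0 and 0 were called without E12.5 replicate 1, without E13.5 replicate 2 and without either E15.5 replicate, 0 and 1 without E12.5 replicate 2, 9 and 10 without E13.5 replicate 1, and 10 and 7 without E14.5 replicate 1. Requiring a call in all 8 libraries leaves out contacts that are present in 1 group only.

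The pair with the largest ratio of the 10 joined the Mir124-2hg promoter bin, host of the neuronal microRNA gene Mir124a-2 (chr3:17790001-17800000), to a bin 860 kb away at chr3:16930001-16940000. Its observed/expected ratio was 12.8 and 11.1 at E12.5, 13.2 and 10.7 at E13.5, 17.1 and 17.0 at E14.5, and 22.0 and 24.0 at E15.5. All middle libraries lay above all early ones, and the fold was 1.56. CTCF peaks lay in both bins at all 4 stages.

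The bin of Fgf8, the signalling molecule of the anterior forebrain organizer, is shared with the nucleoplasmin gene Npm3 (chr19:45740001-45750000), and it contacted a bin 12.7 kb from Lbx1, 530 kb away. The ratio was 6.18 and 3.79 at E12.5, 4.70 and 7.94 at E13.5, 10.0 and 11.8 at E14.5, and 11.5 and 11.1 at E15.5, a fold of 1.82. The groups did not overlap, and the values rest on 12 to 28 read pairs early and 35 to 43 middle. A pair of promoters, those of Neto2, an auxiliary subunit of kainate receptors, and of the transporter gene Abcc12, lay 890 kb apart on chromosome 8. It had ratios of 6.49 and 6.15, 12.4 and 7.41, 15.5 and 14.6, and 20.0 and 17.2 over the stages and a fold of 1.91, from 9 to 35 read pairs per library. Ier5l, a gene related to the immediate early response genes, and a bin 300 kb away had ratios of 3.73 to 4.53 early and 6.28 to 8.09 middle (fold 1.58).

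Of the 6 lower pairs, 1 joined the bin of the microRNA gene Mir9-2 and its host C130071C03Rik (chr13:83730001-83740000) to a bin 910 kb away. MiR-9 acts in neural progenitors and promotes their differentiation. The ratio was 6.88 and 6.66 at E12.5, 5.51 and 5.20 at E13.5, 2.80 and 5.69 at E14.5, and 3.54 and 2.88 at E15.5 (fold 0.565). It was the only 1 of the 10 pairs whose groups overlapped, through E14.5 replicate 2. The mature microRNAs of Mir9-2, read from RefSeq (GRCm38.p6, plus strand, chr13:83738821-83738843 and chr13:83738858-83738879), are shown because the gene lies in the changed bin, with the seed (bases 2 to 8) in capitals. A minus-strand microRNA of the same bin, mmu-miR-9b-3p of Gm51268, is not shown. The 2 arms of Mir9-2 have different seeds.
mmu-miR-9-5p: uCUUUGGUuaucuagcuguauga
mmu-miR-9-3p: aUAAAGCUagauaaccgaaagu

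Zbtb16 (PLZF), a zinc-finger factor of early neural stem cells, lies between the bins of another lower pair, chr9:48640001-48650000 and chr9:48850001-48860000, which are 4.30 and 13.8 kb from the gene. Its ratio was 7.95 and 9.47 at E12.5, 5.87 and 7.25 at E13.5, 3.30 and 5.81 at E14.5, and 4.05 and 3.78 at E15.5 (fold 0.515), from 13 to 33 read pairs. The highest middle value fell just under the lowest early one. The bin of Wnt7b, a Wnt ligand of the developing cortex, contacted a bin in Atxn10 120 kb away with ratios of 3.28 to 5.03 early and 2.07 to 3.13 middle (fold 0.611).

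Prdm16, a regulator of radial glia, contacted a bin in its own body 130 kb away. The ratio was 4.48 to 5.69 early and 3.40 to 4.42 middle (fold 0.693), on 79 to 137 read pairs per library, the most of any of the 10. Sema5b, which encodes a semaphorin, contacted a bin in its own body 80 kb away with ratios of 4.09 to 5.61 early and 3.22 to 3.90 middle (fold 0.695). Kif26a, which encodes a kinesin-like protein, and a bin 180 kb away had 4.09 to 4.52 early and 2.54 to 3.14 middle (fold 0.635). The pooled lists held 9 of the 10 pairs at all 4 stages and the Wnt7b pair at 3.

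**Figure D5:**
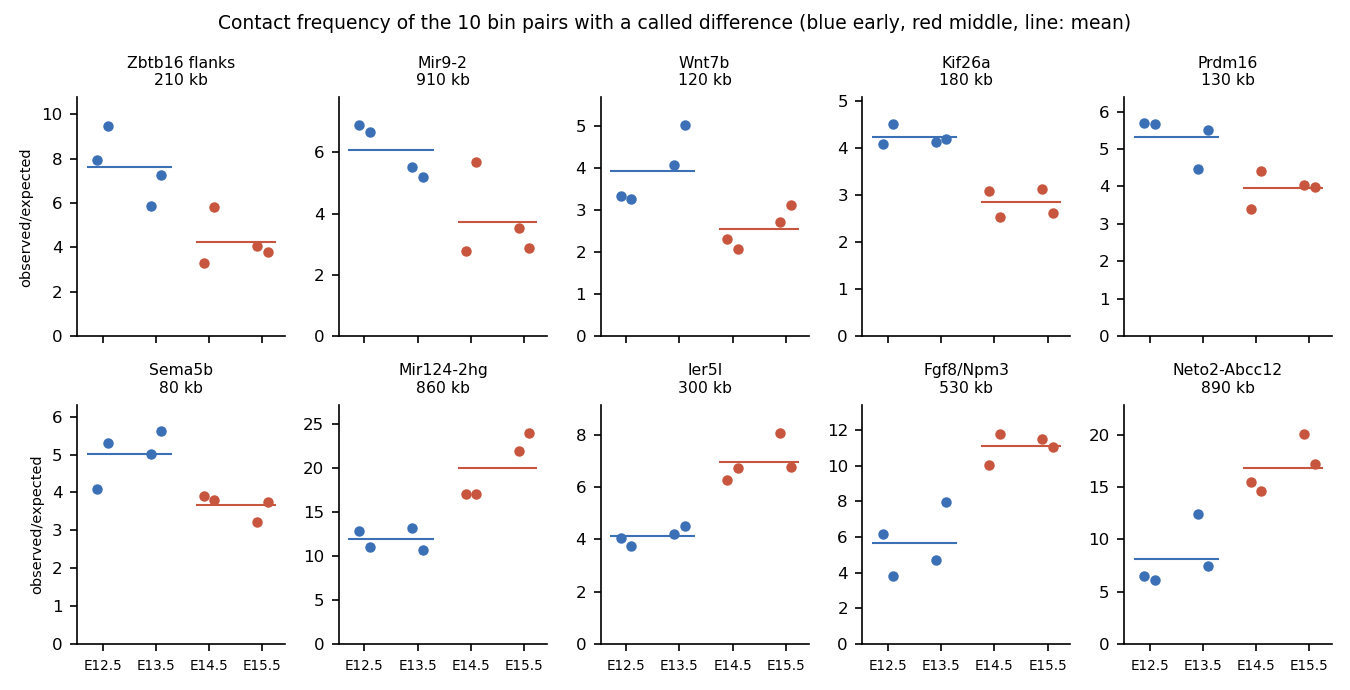
Observed/expected ratio of the 10 called bin pairs (y axis) in each of 8 libraries by stage (x axis). In 9 pairs all middle libraries lie on one side of all early ones, and in the Mir9-2 pair E14.5 replicate 2, at 5.69, lies within the early range. The 10 pairs were picked by the test of this same contrast, and the share that separates among all 5370 pairs was not counted.

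CTCF sites were looked for at the ends of these pairs because CTCF peaks lay at most of them. The letters searched were CCANNAGNNGGC, on either strand, within 100 bases of the summit of an E14.5 peak, a window of 201 bases, and 40.45% of all 57898 autosomal E14.5 peaks hold them. Sites of 30 bases, read from the mm10 reference in the direction of the motif, with the motif in capitals, were found at 5 ends. Only the strongest peak of each bin was searched. Most ends with an E14.5 peak held no such site, and the share was not tested against that of all peaks. They lie at chr19:45746525-45746554 (plus strand), chr2:30776145-30776174 (minus), chr16:35628391-35628420 (minus), chr9:48856429-48856458 (minus) and chr15:85464518-85464547 (plus), in the order shown.
Fgf8 and Npm3 end: taaacacgcCCACCAGAGGGCgctagttcc
Ier5l partner: caatggaagCCAGTAGAGGGCgttggatct
Sema5b partner: ggcagcttgCCAGCAGGGGGCgcctgggta
Zbtb16 flank: ccatgatgtCCAGAAGAGGGCactagatcc
Wnt7b partner: ccctgtgctCCACCAGAGGGCttggggctt

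CTCF enrichment at these sites comes from peak lists with 1 value per stage and has no test. At the Fgf8 and Npm3 end the peak fold was 43.2, 33.0, 54.4 and 26.8 from E12.5 to E15.5. At the Sema5b partner, whose contact was lower in the middle group, it was 49.5, 47.3, 43.1 and 30.9. At the Ier5l partner it was 9.40, 9.27, 11.4 and 7.61. The Zbtb16 flank had no listed peak at E12.5 and then 4.22, 7.07 and 3.55, and the Wnt7b partner had a peak at E12.5 (5.02) and E14.5 (6.18) only. Both last sites are weak peaks, for which the listing can differ by threshold between stages.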

How the data were processed

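H3K4me3 PLAC-seq and CTCF ChIP-seq were done on dissected tissue of C57BL/6N mouse fetuses. Reads were aligned to mm10 with BWA and processed with SAMtools and Juicer, and CTCF peaks were called with MACS2 (tool names per the labels; versions are not given in the sources used here). The authors ran MAPS on 10-kb bins and deposited for each interaction the read-pair count, the expected count (a fitted signal) and the FDR, an adjusted p-value; the deposited CTCF peak lists hold fold enrichment over input, 1 list per stage from pooled libraries (the E14.5 libraries are labelled technical replicates). The authors' pooled lists were downsampled to equal read pairs.

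TSS bins came from GENCODE (GRCm38) protein-coding genes on 19 autosomes. The number of listed interactions touching a gene's TSS bins was scaled to the median library total, and log2(number + 1) was tested with limma 3.58.1 (R 4.3.3; trend), 4 against 4 libraries, for genes with a scaled mean of at least 1. Read-pair counts of pairs listed in all 8 libraries were tested with edgeR 4.0.16, with DESeq2 1.42.0 and limma as alternatives. Alternatives also scaled the numbers to the usable read pairs the authors give per library. A Benjamini-Hochberg adjusted p under 0.05 was the threshold. Library measures were compared by exact permutation over 70 splits. The limma gene fits (by group and by stage means) and the edgeR fit of bin pairs were checked on simulated data. The permutation test was checked on cases with known answers, and the alternative tools were not checked. Named genes were the 10 with the smallest unadjusted p in each direction, since fewer than 10 passed, and 19 genes of cortical neurogenesis, not all of which are reported here. The comparison, the gene lists and the tests were chosen with earlier results of these data known. The p-values measure the spread between these libraries, 2 per stage. The read pairs behind a listed interaction had a median of 18 to 20 per library. They carry no molecular identifiers.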

Additional observations from a re-analysis of the deposited data

Results flagged for a closer look

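In 6 of 102 groups of 4 libraries, the highest or lowest library stood far from the other 3, judged by its gap to the nearest other library as a share of the whole range (Dixon's ratio, 95% level); chance gives about 1 in 20. For Celf2 the ratio was 0.854 in the early group, where E12.5 replicate 2 was lowest, and 0.958 in the middle group, where E14.5 replicate 2 was lowest (14.2 scaled interactions). Tiam2 had a ratio of 1 in the early group, since E13.5 replicate 1 had 1.88 scaled interactions and the other 3 had 0. Neurod1 had 0.957 in the middle group, with E14.5 replicate 1 lowest (5.31). The observed/expected ratio of the pair at Prdm16 gave 0.849 in the early group, with E13.5 replicate 1 lowest (4.48), and the median observed/expected ratio of whole libraries gave 0.878 in the middle group, with E14.5 replicate 1 lowest (3.91).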

How the results depend on the processing

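Gene counts at an adjusted p under 0.05 (higher and lower; 0 and 0 in the reported limma fit) were 162 and 1 with scaling to usable read pairs, 15 and 3 with a pseudocount of 3, 99 and 34 with no filter, 60 and 26 by stage means, 240 and 57 by stage means over all 12 FB libraries, 0 and 2 for the most upstream TSS bin, 282 and 87 without E13.5 and 0 and 1 without E14.5; leaving out 1 library gave 0 to 44 and 0 to 17. The other alternatives gave 0 and 0. Settings of the stage-means fit, chosen after seeing the data, gave 230 and 7 unscaled, 59 and 27 with edgeR, 0 and 0 without E12.5, and 0 to 196 and 0 to 50 without 1 library. Bin pair counts (4 and 6) were 0 and 0 with limma and with DESeq2, 10 and 0 without centring, 4 and 6 with TMM, 5 and 11 with at least 20 read pairs, 11 and 12 by stage means, and 0 to 10 and 0 to 10 without 1 library. Pairs listed in 4 of 4 against none (321 and 92) were 1826 and 430 at 3 of 4 or more and 6365 and 3441 in the pooled lists. Without 1 library, which loosens the rule and can only raise the counts, they were 388 to 932 and 122 to 219.

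Among the named genes, signs reversed for genes that did not pass. Unscaled, the log2 difference was 0.0414 for Eomes, 0.32 for Fezf2, 0.18 for Dlx1, 0.0223 for Dlx2, 0.34 for Gad1 and 0.0315 for Gad2. By usable read pairs it was 0.21 for Eomes, 0.50 for Fezf2, 0.17 for Sox2, 0.36 for Dlx1, 0.20 for Dlx2, 0.52 for Gad1, 0.21 for Gad2 and 0.15 for Sox9. Fezf2 was 0.0325 with DESeq2, 0.0033 for summed observed/expected ratios, 0.51 at a ratio of at least 3, 0.15 without E12.5, 0.0123 without E14.5 and −0.26 to 0.0315 without 1 library. Dlx1 was 0.58 at a ratio of at least 3 and 0.10 without E12.5, and Gad1 was 0.0065 with DESeq2 and 0.0517 without E12.5. The promoter share differed by −0.153 to 0.601 percentage points, the total by 5604 to 10538 and the distance by 12.5 to 22.5 kb without 1 library. The cause was not tested for any of these.

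Replicate numbers did not pair the libraries: the correlation of same-numbered deviations between stages was −0.0390 to 0.0428 over 6 pairs of stages. With the replicate block the counts were 0 and 0 genes and 4 and 6 bin pairs, and the library measures had exact permutation p-values of 0.222 (total, a difference of 7956), 0.222 (distance, 17.5 kb) and 0.556 (promoter share, 0.309 points). With 2 libraries per stage and fewer calls at E12.5, genes with few interactions there may be under the calling limits and not without contacts.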
